A study of Mus musculus with 30 samples.

Results

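The immune cells described here came from tumours of MOC1E1, a mouse oral squamous carcinoma line that part of the labels call MOC1esc1, growing in C57BL/6J mice. One group of tumour-bearing mice received an anti-CTLA-4 antibody and the other an isotype control antibody, both by intraperitoneal injection on days 3, 6 and 9 after the tumour cells were given. Each group is a single droplet library of 5′ gene expression with a paired T cell receptor library, so the treatment and the library cannot be told apart. The sources used here do not state how many mice went into a library or whether mice were pooled. Every barcode with at least 300 detected genes was kept, which left 3116 anti-CTLA-4 cells and 3470 isotype cells, together 6586 of the 11528 barcodes in the MOC1E1 table. The rest of that table is an anti-PD-1 library of 4917 such cells, and its values are given only where they help to place one of the others. With 1 library a side there is no test, and every interval below is an exact 95% interval (binomial for shares, Poisson for summed counts, Newcombe for differences between shares) that covers counting error only and not the spread between mice.

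CTLA-4 is an inhibitory receptor that competes with CD28 for the B7 ligands on antigen-presenting cells. It is carried at high levels by regulatory T cells, which restrain other T cells, and is induced on conventional CD4 and CD8 T cells after activation. Blocking antibodies release T cells from this inhibition, and some of them also remove regulatory T cells through Fc receptors on myeloid cells. CD8 T cells that leave the naive state lose lymph node homing genes and gain granzymes, perforin and inhibitory receptors. NK cells kill without a rearranged receptor. Tumour macrophages and neutrophils can limit T cells by degrading arginine or by carrying PD-L1.

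The receptor sequences give the plainest view of the T cells. A T cell clone is a set of cells with the same rearranged alpha and beta chain. The CDR3 is the stretch of each chain where the V and J segments are joined, in the beta chain with a D segment between them. The 3 largest clones of each library are shown because the 3 anti-CTLA-4 clones carry sequence in common; the runs marked below were read off these clones. The sequences are those in the deposited contig tables, written 5′ to 3′ as the coding strand; the alpha chain locus is on chromosome 14 and the beta chain locus on chromosome 6. In the alpha chains, capitals mark the end contributed by the J segment TRAJ7. In the beta chains they mark the run CTGGGGGGG.
Anti-CTLA-4 clone 1, 23 cells, alpha (TRAV8D-2, TRAJ7): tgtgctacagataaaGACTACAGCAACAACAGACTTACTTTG
Anti-CTLA-4 clone 1, beta (TRBV19, TRBJ2-3): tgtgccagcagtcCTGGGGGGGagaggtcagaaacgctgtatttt
Anti-CTLA-4 clone 2, 23 cells, alpha (TRAV8D-2, TRAJ7): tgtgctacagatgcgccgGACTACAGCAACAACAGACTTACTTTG
Anti-CTLA-4 clone 2, beta (TRBV13-1, TRBJ2-5): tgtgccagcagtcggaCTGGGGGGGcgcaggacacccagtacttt
Anti-CTLA-4 clone 3, 22 cells, alpha (TRAV16D-DV11, TRAJ7): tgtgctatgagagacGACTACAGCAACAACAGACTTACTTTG
Anti-CTLA-4 clone 3, beta (TRBV26, TRBJ2-7): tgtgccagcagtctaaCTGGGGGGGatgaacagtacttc
Isotype clone 1, 9 cells, alpha (TRAV16N, TRAJ23): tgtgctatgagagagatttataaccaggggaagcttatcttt
Isotype clone 1, beta (TRBV19, TRBJ2-1): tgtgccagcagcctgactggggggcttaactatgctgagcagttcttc
Isotype clone 2, 4 cells, alpha (TRAV7-4, TRAJ12): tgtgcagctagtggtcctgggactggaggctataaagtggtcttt
Isotype clone 2, beta (TRBV13-1, TRBJ2-5): tgtgccaccggggaagacacccagtacttt
Isotype clone 3, 3 cells, alpha (TRAV10, TRAJ7): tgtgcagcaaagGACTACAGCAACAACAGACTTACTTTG
Isotype clone 3, beta (TRBV5, TRBJ2-4): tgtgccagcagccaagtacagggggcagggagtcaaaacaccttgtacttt

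All 3 of the largest anti-CTLA-4 clones used TRAJ7 with different V segments or junctions, and all 3 beta chains held the run of G bases. Whether a D segment encodes that run was not tested. TRAJ7 was used by 237 of 750 anti-CTLA-4 cells with both chains, or 31.6% (28.3 to 35.1), and by 14 of 476 isotype cells, or 2.94% (1.62 to 4.89). The anti-PD-1 library stood between them at 18.8%. Because a large clone counts many times among cells, the same share was also taken over clones: 65 of 414 anti-CTLA-4 clones (15.7%) and 11 of 447 isotype clones (2.46%) used TRAJ7. Among cells whose receptor was seen only once, the shares were 9.66% with anti-CTLA-4 and 2.09% with isotype, and among cells in clones of 2 or more they were 48.0% and 10.9% in the same order. The difference between anti-CTLA-4 and isotype was present among receptors seen once as well as in expanded clones. The 2 groups are not independent, because a receptor seen once can share its alpha CDR3 with another clone. Over all J segments, 11.8% of anti-CTLA-4 and 6.26% of isotype clones shared theirs in this way.

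The TRAJ7 receptors were not copies of 1 receptor. The 65 anti-CTLA-4 clones held 54 different alpha CDR3 sequences, 60 different beta CDR3 sequences, 25 alpha V genes and 13 beta V genes. Calls among near-identical copies of alpha V genes, such as those named with D or N, are uncertain. The run of J-encoded bases shown in capitals, GACTACAGCAACAACAGACTTACTTTG, was found in 31.3% of anti-CTLA-4 cells and 2.73% of isotype cells, against 17.6% of anti-PD-1 cells. CTGGGGGGG in the beta CDR3, searched after its first 13 bases, was found in 20.1% of anti-CTLA-4 cells and 7.35% of isotype cells, against 17.4% with anti-PD-1. Over clones the shares lay closer, at 42 of 414 with anti-CTLA-4 (10.1%) and 34 of 447 with isotype (7.61%), against 7.86% with anti-PD-1. Both runs came together in 12.9% of anti-CTLA-4 cells, against 0.210% with isotype and 11.4% with anti-PD-1. These 97 anti-CTLA-4 cells belong to 10 clones, among them the 3 that the runs were read from, and over clones the shares were 2.42% with anti-CTLA-4, 0.224% with isotype and 0.890% with anti-PD-1. In the anti-CTLA-4 library no other J segment came near: the next was TRAJ33 with 6.67% of cells, while the most used one in the isotype library was TRAJ23 with 7.56%.

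**Figure D1:**
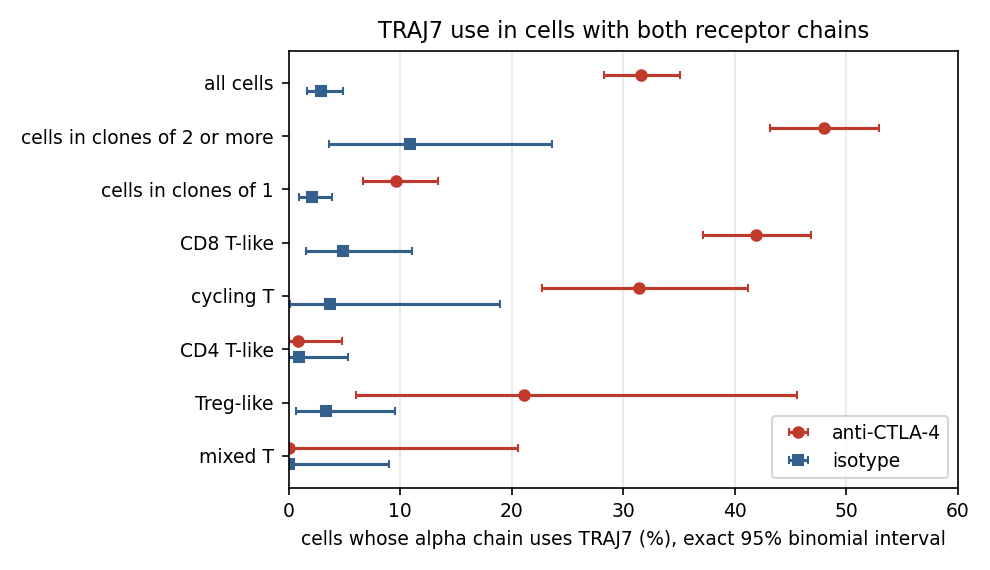
Share of cells with both receptor chains that used TRAJ7, in percent with exact 95% binomial intervals, for all cells, for cells in clones of 2 or more, for receptors seen in 1 cell, and for each T cell class; circles are the anti-CTLA-4 library and squares the isotype library. Among CD8 T-like cells 41.9% with anti-CTLA-4 and 4.90% with isotype used TRAJ7, while among CD4 T-like cells the shares were 0.877% and 0.971%.

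Joined to the expression data by barcode, TRAJ7 was most used in the CD8 T-like cells. It was found in 41.9% of anti-CTLA-4, 4.90% of isotype and 33.5% of anti-PD-1 CD8 T-like cells. Of cycling T cells 31.4% with anti-CTLA-4 and 3.70% with isotype (1 of 27 cells) used it, against 26.1% with anti-PD-1. In Treg-like cells it was used by 21.1% of 19 cells with anti-CTLA-4 and 3.37% of 89 with isotype, and part of that class carried Cd8a or Cd8b1 transcripts, as described below. CD4 T-like cells used it at 0.877% with anti-CTLA-4 and 0.971% with isotype, and none of the 16 anti-CTLA-4 or 39 isotype mixed T cells did, counts whose intervals reach 20.6% and 9.03%. The plot of TRAJ7 use by class shows the same contrast.

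The makeup of the infiltrate differed across nearly every lineage. T cells of all kinds made up 64.1% (62.4 to 65.8) of anti-CTLA-4 cells and 26.3% (24.8 to 27.8) of isotype cells. Macrophages, monocytes, neutrophils and dendritic cells together made up 23% (21.6 to 24.6) with anti-CTLA-4 and 54.1% (52.4 to 55.7) with isotype, so there were 2.78 T cells per myeloid cell with anti-CTLA-4 and 0.486 with isotype. The anti-PD-1 library lay at 35.3% T cells, nearer to isotype. These are shares of the captured cells, so a larger share of one class lowers the others even if their number per tumour was the same, and numbers per tumour were not measured.

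Classes came from clusters of the 3 MOC1E1 libraries and carry the suffix "-like" where marker genes named them; cluster 12, counted with the macrophages and monocytes, had their markers but none among its 10 leading genes. CD8 T-like cells were 38.4% (36.7 to 40.1) of anti-CTLA-4 cells and 6.51% (5.71 to 7.39) of isotype cells, a difference of 31.9 points. Cycling T cells were 6.74% with anti-CTLA-4 and 1.38% with isotype, and CD4 T-like cells 14.3% and 6.20% in the same order. Treg-like cells, whose cluster carries Foxp3, the factor that fixes regulatory T cell identity, were a smaller share: 1.80% (1.36 to 2.33) with anti-CTLA-4 and 6.34% (5.55 to 7.20) with isotype. For each Treg-like cell the anti-CTLA-4 library held 21.4 CD8 T-like cells, the anti-PD-1 library 1.91 and the isotype library 1.03.

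Among T cells alone, where the number of myeloid cells plays no part, CD8 T-like cells were 59.9% with anti-CTLA-4 and 24.8% with isotype. Treg-like cells were 2.80% and 24.1% of T cells in that order. CD4 T-like cells took a like share of T cells, 22.3% with anti-CTLA-4 and 23.6% with isotype, with a difference whose interval ran from −4.66 to 1.95 points. A mixed T cluster that held Trdc and Klra transcripts beside T cell markers was 4.11% of T cells with anti-CTLA-4 and 17.7% with isotype, and gamma-delta T-like cells were 0.351% and 4.61%, from 7 and 42 cells.

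Innate lymphoid and myeloid classes were smaller shares with anti-CTLA-4, apart from 1 cluster. NK-like cells were 4.33% (3.64 to 5.11) of anti-CTLA-4 cells and 15.6% (14.5 to 16.9) of isotype cells. Macrophage and monocyte-like cells were 12.5% (11.4 to 13.8) and 27.9% (26.4 to 29.5), neutrophil-like cells 8.38% (7.43 to 9.40) and 20.3% (19 to 21.7), and dendritic-like cells 2.12% and 5.82%, each with anti-CTLA-4 first. B and plasma-like cells were 0.257% with anti-CTLA-4 and 2.36% with isotype. The exception was cluster 15, at 7.99% (7.06 to 9.00) with anti-CTLA-4 and 0.692% (0.444 to 1.03) with isotype. Over all MOC1E1 libraries 58.3% of its cells held Ncr1 transcripts, and it is described with the NK cells below.

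**Figure D2:**
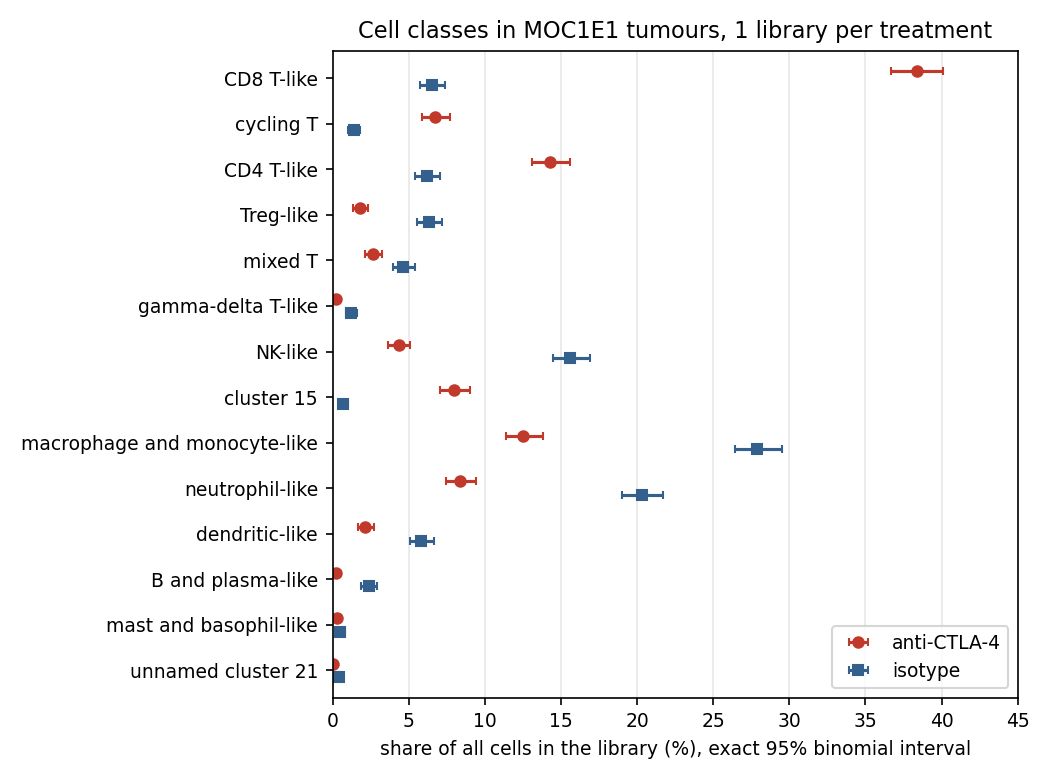
Share of all cells in each of 14 classes, in percent with exact 95% binomial intervals; circles are the 3116 anti-CTLA-4 cells and squares the 3470 isotype cells. CD8 T-like cells stand at 38.4% with anti-CTLA-4 and 6.51% with isotype, while macrophage and monocyte-like cells stand at 12.5% and 27.9%.

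Among the cells that were not T cells, the balance of myeloid classes was closer. Macrophage and monocyte-like cells were 34.9% of these with anti-CTLA-4 and 37.9% with isotype, neutrophil-like cells 23.3% and 27.6%, and dendritic-like cells 5.90% and 7.90%. NK-like cells were 12.1% with anti-CTLA-4 and 21.2% with isotype on this base. Cluster 15 was 22.3% of it with anti-CTLA-4 and 0.938% with isotype. Its larger share lowers every other class on this base, and shares without cluster 15 were not taken. Of the myeloid differences, those of neutrophil-like and dendritic-like cells had intervals below 0, from −7.20 to −1.16 and from −3.66 to −0.174 points, while that of macrophage and monocyte-like cells ran from −6.27 to 0.456 points.

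Single marker transcripts, counted after every cell was thinned to 1000 UMIs, gave the same order of libraries without clusters. Cd3e or Cd3d was found in 63.1% of anti-CTLA-4 and 25.7% of isotype cells, and Cd8a or Cd8b1 in 44.3% and 7.10%. Foxp3 was found in 1.11% with anti-CTLA-4 and 3.58% with isotype, and Klrb1c, which encodes NK1.1, in 3.90% and 11.2%. Lyz2, a lysozyme gene of myeloid cells, was found in 12.4% with anti-CTLA-4 and 35.7% with isotype, and S100a8 or S100a9, which neutrophils make in bulk, in 4.46% and 15.6%. Lyz2 does not mark macrophages and monocytes alone. Without thinning it was also found in 62.3% of neutrophil-like cluster 11 and 81.3% of dendritic-like cluster 13. Thinning left out 222 anti-CTLA-4 and 230 isotype cells, of which 132 and 187 were neutrophil-like.

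Over whole libraries, anti-CTLA-4 and isotype cells were alike in depth, at medians of 4079 and 4077 UMIs and of 1523 and 1602 genes, with mitochondrial shares of at most 5.00% and 4.99%. Within classes depth differed: macrophage and monocyte-like cells had medians of 3575 UMIs with anti-CTLA-4 and 7036 with isotype, dendritic-like cells 5877 and 8298, neutrophil-like cells 985 and 1393, and CD8 T-like cells 4517 and 5499. Only 12 barcodes were shared by both libraries. No cluster had a carcinoma, fibroblast or endothelial marker among its 10 leading genes. Levels below are counts per 1000000 (CPM) of the UMIs summed over a class in a library, and log2 ratios are of CPM + 5. A gene was compared where it reached 50 CPM in 1 library and 50 UMIs over both.

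In CD8 T-like cells, effector genes were higher with anti-CTLA-4 and genes of naive and memory T cells were lower. Of 2709 genes compared, 91 (3.36%) were at least 2-fold higher and 59 (2.18%) at least 2-fold lower, together 5.54%, around a median log2 ratio of 0.02. With both libraries clustered alone the split was 49 higher and 99 lower. The clusters that made up the class differed: cluster 1 held 79.7% of the anti-CTLA-4 cells and 13.7% of the isotype cells, cluster 8, led by naive and memory genes, held 7.35% and 64.2%, and cluster 9, led by chemokine genes, 12.9% and 22.1%. Clusters 1 and 15 (the second described below) are mostly anti-CTLA-4 cells, and a cluster that comes mostly from 1 library may reflect the library itself rather than a kind of cell.

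Granzymes and perforin, the proteins that kill target cells, were higher as a group: of 18 list members, 13 were compared, 5 were at least 2-fold higher and none lower, with a median log2 ratio of 0.64. Gzmb stood at 856 CPM (833 to 879.8) with anti-CTLA-4 and 152 CPM (132 to 174) with isotype, a 5.64-fold difference. It was detected in 50.2% and 18.6% of these cells, against 2.05% and 1.44% of macrophage and monocyte-like cells, which should lack it. Gzma stood at 1326 CPM with anti-CTLA-4 and 379 CPM with isotype, Gzmk at 197 and 70.4 CPM, and Prf1, which encodes perforin, at 111 and 48.9 CPM. The anti-PD-1 library had 947 CPM of Gzmb and 275 CPM of Prf1. Gzmc, at 99.9 CPM with anti-CTLA-4 and 1.48 CPM with isotype, came from 5.93% and 0.885% of cells, and 29.7% of its anti-CTLA-4 UMIs came from 1 cell.

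Inhibitory receptors differed unevenly. Of 20 list members 14 were compared, and 4 were at least 2-fold higher and none lower, with a median of 0.48. Ctla4 itself, the target of the antibody, stood at 109 CPM (101 to 118) with anti-CTLA-4 and 23 CPM (15.6 to 32.6) with isotype. Havcr2, which encodes TIM-3, stood at 76.4 and 29.6 CPM in the same order, Cd38 at 53.0 and 14.8 CPM, and the activation-induced factor Bhlhe40 at 290.1 and 127 CPM. Lag3 (391 CPM with anti-CTLA-4, 210.4 with isotype) and Tigit (189 and 98.5 CPM) were higher by less than 2-fold. Pdcd1, which encodes PD-1, had overlapping intervals, at 255 CPM (242 to 268) with anti-CTLA-4 and 241 CPM (216 to 269) with isotype, although it was detected in 52.3% and 30.1% of cells.

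Genes of tissue residency and homing, and killer lectin receptors, were higher too. Of 13 residency and homing genes compared from a list of 15, 5 were at least 2-fold higher and none lower, with a median of 0.60. Cxcr6, a chemokine receptor of tissue-resident T cells, stood at 742 CPM with anti-CTLA-4 and 219 CPM with isotype, and Itga1, the CD49a integrin, at 57.5 and 11.9 CPM. Of 8 lectin and NK receptors compared from a list of 21, 3 were at least 2-fold higher, among them Klrc1 (NKG2A) at 412 CPM with anti-CTLA-4 and 165 CPM with isotype. Csf1, the growth factor of macrophages, was 11.6-fold higher, at 111 CPM (103 to 120.2) with anti-CTLA-4 and 9.63 CPM (5.13 to 16.5) with isotype. It was detected in 30.2% and 5.31% of CD8 T-like cells, against 0.741% and 0.184% of NK-like cells.

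The naive and memory list had 16 of 19 members compared, and 11 were at least 2-fold lower and none higher, with a median log2 ratio of −1.58. Ccr7, the chemokine receptor that brings T cells into lymph nodes, stood at 9.11 CPM with anti-CTLA-4, against 149.6 CPM with isotype. The transcription factor Tcf7, which sustains memory and stem-like T cells, stood at 52.3 CPM with anti-CTLA-4 and 219 CPM with isotype, Lef1 at 35.5 and 127 CPM, and Klf2, which keeps T cells recirculating, at 151 and 556 CPM. The exception was Il7r, the receptor for interleukin-7, which was 325 CPM (310.3 to 339) with anti-CTLA-4 and 281 CPM (254 to 311) with isotype.

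Chemokine and cytokine genes gave no single direction. Of 10 compared from a list of 16, Csf1 was higher and 3 were lower by at least 2-fold, with a median of −0.32. Ccl1 stood at 138 CPM with anti-CTLA-4 and 1655 CPM with isotype, and Xcl1, which draws cross-presenting dendritic cells, at 176 and 1907 CPM, but they were detected in 8.35% and 16.8%, and in 12.4% and 23% of cells. With doublets removed the log2 ratio of Ccl1 was 0.34 in place of −3.54. Ifng, which encodes interferon gamma, stood at 315 CPM with anti-CTLA-4 and 586 CPM with isotype, yet 71.6% of its isotype UMIs came from 1 cell. Counted by cells, Ifng was detected in 51.8% of anti-CTLA-4 and 21.7% of isotype CD8 T-like cells, against 1.53% and 0.310% of macrophage and monocyte-like cells. Ccl5 was 7738 CPM with anti-CTLA-4 and 5906 CPM with isotype, and Ccl4 1369 and 1378 CPM. None of 15 interferon gamma-induced genes compared, from a list of 30, passed 2-fold.

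Within single clusters only 8 and 9 could be compared. Cluster 1, with 79.7% of the anti-CTLA-4 cells of the class, had 31 isotype cells and was not compared on its own. Ccr7 was at least 2-fold lower in both clusters 8 and 9. Gzmb was at least 2-fold higher in cluster 9 and 1.89-fold higher in cluster 8, and Tcf7 was lower by less than 2-fold in both. In cluster 9, with 155 anti-CTLA-4 and 50 isotype cells, Gzmb stood at 785 and 157 CPM and Csf1 at 156 and 21.5 CPM, Ccr7 at 6.64 and 123 CPM, while Tcf7 was 24.7 and 25.8 CPM. In cluster 8, with 88 anti-CTLA-4 and 145 isotype cells, Gzmb was 251 and 132 CPM, Ccr7 83.6 and 199 CPM and Tcf7 221 and 363 CPM. Macrophage markers summed to 1196 CPM in anti-CTLA-4 and 968 CPM in isotype CD8 T-like cells, and neutrophil markers to 33.5 and 234 CPM. NK markers, which include Gzma and Prf1 reported above, summed to 1691 and 624 CPM. The part of these markers in the results was not tested. Of the 62.2 CPM of S100a8 in isotype cells, against 2.82 CPM with anti-CTLA-4, 94.0% came from 1 cell.

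CD4 T-like cells showed the largest number of genes past 2-fold among the T cell classes: of 2900 compared, 113 (3.90%) were higher and 77 (2.66%) lower with anti-CTLA-4, together 6.55%, with a median of −0.03. The naive and memory list again lay low, with 12 of 17 compared members at least 2-fold lower, none higher and a median of −1.65. Klf2 stood at 99.6 CPM with anti-CTLA-4 and 839 CPM with isotype, Ccr7 at 16.3 and 166 CPM, and S1pr1, the receptor that lets T cells leave lymph nodes, at 64.8 and 248 CPM. This class is a single cluster, and whether it holds naive and effector cells in different parts in the 2 libraries was not tested.

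The T helper 1 list, with genes of the interleukin-12 and interleukin-18 response, had 5 of 11 compared members at least 2-fold higher and none lower, with a median of 0.84. Il12rb2, the signalling chain of the interleukin-12 receptor, stood at 83.3 CPM (70.6 to 97.6) with anti-CTLA-4 and 8.28 CPM (3.57 to 16.3) with isotype. Il18rap stood at 148 and 33.1 CPM in the same order, and Tbx21, the factor that sets the T helper 1 fate, at 51.7 CPM (41.8 to 63.2) and 22.8 CPM (14.3 to 34.5). Ifng stood at 225 CPM with anti-CTLA-4 and 89.0 CPM with isotype, with 40.6% and 45.3% of its UMIs in 1 cell, and it was detected in 22.7% and 12.1% of cells. Cxcr3, Stat4 and Irf1 were each lower by less than 2-fold with anti-CTLA-4.

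Inhibitory receptors, lectin receptors and glycolysis genes were higher in CD4 T-like cells. Of 11 inhibitory receptor and exhaustion genes compared, 5 were at least 2-fold higher, among them Ctla4 at 214 CPM with anti-CTLA-4 and 73.5 CPM with isotype and Lag3 at 168 and 44.5 CPM. All 6 lectin and NK receptors compared were higher, 5 of them by at least 2-fold, among them Klrd1 (CD94) at 269 CPM with anti-CTLA-4 and 55.9 CPM with isotype. Of 17 glycolysis and hypoxia genes compared from a list of 19, all were higher with anti-CTLA-4 and 6 passed 2-fold, with a median of 0.92. Hif1a, the oxygen-sensing factor, stood at 689 CPM with anti-CTLA-4 and 231 CPM with isotype, and Gapdh at 1989 and 991 CPM. In CD8 T-like cells all 13 compared genes of this list were higher as well, though only 2 by 2-fold.

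The gene with the largest ratio in CD4 T-like cells was Plac8, at 829 CPM (788 to 872) with anti-CTLA-4 and 34.1 CPM (23.5 to 48.0) with isotype, or 24.3-fold. It was detected in 51.0% and 4.65% of CD4 T-like cells. Plac8 is also abundant in macrophage and monocyte-like cells, at 4615 CPM with anti-CTLA-4 and 3184 CPM with isotype, and it was detected in 10.7% and 12.3% of Treg-like cells. Csf1 was 124 CPM with anti-CTLA-4 and 10.3 CPM with isotype, and Ifitm3, an antiviral membrane protein, 712 and 96.2 CPM. Ccl4 was lower, at 31.6 CPM with anti-CTLA-4 and 253 CPM with isotype, but 93.0% of the isotype UMIs came from 1 cell, and with both libraries clustered alone its log2 ratio was 1.53 in place of −2.82. Cells with a Cd8a or Cd8b1 transcript numbered 48 of 445 with anti-CTLA-4 and 18 of 215 with isotype. Treg markers, which include Ctla4, summed to 821 CPM in anti-CTLA-4 and 561 CPM in isotype CD4 T-like cells, from 6 and 7 of 7 markers, and were found in 77.3% and 60.5% of cells. Macrophage markers summed to 320.0 and 229 CPM, from 17 and 13 of 26; the part of either in these results was not tested.

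**Figure D3:**
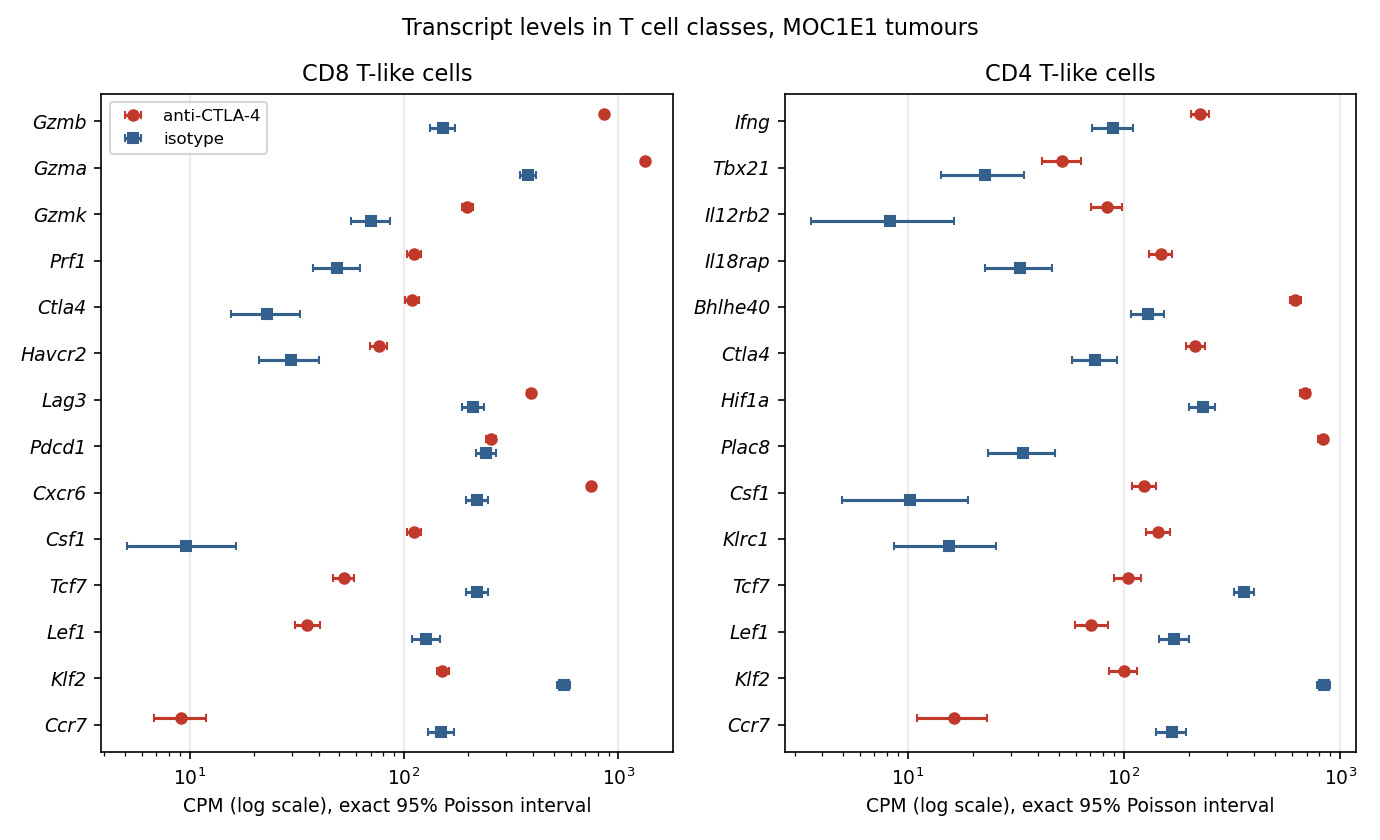
Levels of 14 genes in CD8 T-like cells and 14 in CD4 T-like cells, in CPM of summed UMIs on a log axis, with exact 95% Poisson intervals; circles are the anti-CTLA-4 library and squares the isotype library. Gzmb in CD8 T-like cells stands at 856 CPM with anti-CTLA-4 and 152 CPM with isotype, Pdcd1 has overlapping intervals, and Ccr7, Klf2, Lef1 and Tcf7 are lower with anti-CTLA-4 in both classes.

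Proliferation was read from Mki67 or Top2a, which dividing cells transcribe, after thinning to 1000 UMIs. Either was found in 7.27% (6.16 to 8.51) of all anti-CTLA-4 T cells and 5.13% (3.78 to 6.79) of isotype T cells; without thinning the shares were 21.9% and 15.2%. In CD8 T-like cells outside the cycling cluster the shares were 2.96% (2.07 to 4.09) with anti-CTLA-4 and 0.905% (0.110 to 3.23) with isotype, and in CD4 T-like cells 2.51% and 2.36%. In Treg-like cells the shares were 1.85% (0.0469 to 9.89) with anti-CTLA-4, from 1 of 54 cells, and 6.57% (3.64 to 10.8) with isotype, and without thinning they were 21.4% and 18.2%, so no direction can be read. Cycling T cells were a larger share of T cells with anti-CTLA-4, 10.5% against 5.26% with isotype, and Foxp3 was detected in 6.67% of the cycling T cells with anti-CTLA-4 and 43.8% with isotype.

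In the Treg-like cells, 56 with anti-CTLA-4 and 220 with isotype, Foxp3, Ctla4 and Il2ra differed by less than 2-fold. Foxp3 stood at 753 CPM (657 to 859.7) with anti-CTLA-4 and 556 CPM (510.1 to 604) with isotype, Ctla4 at 836 and 828 CPM, and Il2ra, the high-affinity interleukin-2 receptor, at 801 and 937 CPM. Foxp3 was detected in 96.4% of them with anti-CTLA-4 and 70.9% with isotype, against 0 and 0.722% of macrophage and monocyte-like cells. Of 19 regulatory T cell genes compared from a list of 20, 2 were at least 2-fold higher and 1 lower, with a median of −0.13, while over all 3208 genes compared 21 (0.655%) were higher and 94 (2.93%) lower, together 3.58%, with a median of −0.08. These cells were defined by some of the same genes, so those levels are a description.

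Of the regulatory T cell list the 2 genes past 2-fold higher were Areg, a growth factor of tissue repair, at 138 CPM with anti-CTLA-4 and 56.7 CPM with isotype, with 57.5% of its anti-CTLA-4 UMIs in 1 cell, and Il1rl1, the interleukin-33 receptor, at 131 and 57.7 CPM. The 1 past 2-fold lower was Il10, the immunosuppressive cytokine, at 34.4 CPM with anti-CTLA-4 and 144 CPM with isotype. Of 13 inhibitory receptor and exhaustion genes compared, 2 were at least 2-fold lower and none higher, with a median of −0.34: Pdcd1 at 55.0 CPM with anti-CTLA-4 and 233 CPM with isotype, and Havcr2 at 37.8 and 86.0 CPM. Tigit stood at 509 and 948 CPM and Icos, a costimulatory receptor, at 732 and 1091 CPM in the same order, both under 2-fold. Calca, which encodes a neuropeptide precursor, had no UMI with anti-CTLA-4 and 68.8 CPM with isotype, so it was at least 6.67-fold lower when 0 is set to the floor of 3 counts over the class.

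Part of the Treg-like cells carried transcripts of other lineages. Cd8a or Cd8b1 was found in 25 of 56 anti-CTLA-4 cells and 25 of 220 isotype cells, and Cd8a stood at 454 and 77.9 CPM. Cd4 or Cd40lg was found in 39.3% of the anti-CTLA-4 and 59.5% of the isotype cells. Whether the class holds the same kinds of cell in both libraries was not tested. MHC class II genes were among those at least 2-fold higher, such as H2-Aa at 134 CPM with anti-CTLA-4 and 38.5 CPM with isotype, but 64.1% and 73.7% of its UMIs came from 1 cell. With the cells that held Cd8a or Cd8b1 left out, a choice made after seeing the data, the log2 ratio of H2-Aa was −3.34 in place of 1.68. Only 31 anti-CTLA-4 and 195 isotype cells then remained, the first under the minimum of 50 cells set for ratios. Ifitm1, at 1128 CPM with anti-CTLA-4 and 46.6 CPM with isotype, had 41.2% and 54.3% of its UMIs in 1 cell.

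The mixed T class, 82 anti-CTLA-4 and 161 isotype cells, held Trdc, killer lectin and alpha-beta T cell transcripts together and took no lineage name. Of 2655 genes compared, 28 (1.05%) were at least 2-fold higher and 64 (2.41%) lower with anti-CTLA-4, together 3.47%, with a median of −0.07. Gzma stood at 313 CPM with anti-CTLA-4 and 114 CPM with isotype, and Tigit at 82.9 and 24.3 CPM, but with classes from transcripts their log2 ratios were −0.12 and 0.01 in place of 1.42 and 1.58. Ahr, a sensor of dietary and microbial ligands, stood at 18.7 and 91.5 CPM, and Id3 at 112 and 283 CPM in the same order. Unlike in the CD4 and CD8 classes, Tcf7 was higher with anti-CTLA-4, at 399 CPM against 226 CPM with isotype.

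The libraries also differed in clonal expansion. Of the cells with both chains, 57.2% (53.6 to 60.8) of 750 with anti-CTLA-4 and 9.66% (7.16 to 12.7) of 476 with isotype belonged to a clone of 2 or more cells, a difference of 47.5 points (42.9 to 51.7). Clones of 10 or more cells numbered 12 with anti-CTLA-4, holding 24.9% of the cells, and 0 with isotype. The 10 largest clones held 22.1% of anti-CTLA-4 and 6.72% of isotype cells. A larger sample finds more repeats, so the anti-CTLA-4 library was also drawn down to 476 cells, where 51.3% were in clones of 2 or more on average.

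**Figure D4:**
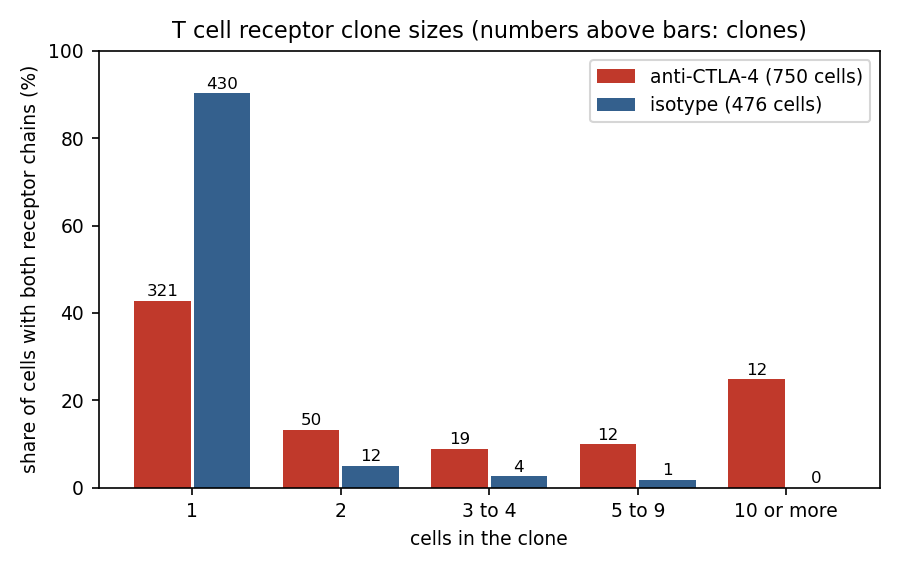
Share of cells with both receptor chains by the size of their clone, in percent; the left bar of each pair is the anti-CTLA-4 library (750 cells) and the right bar the isotype library (476 cells), and the number above a bar counts clones. Cells in clones of 10 or more make up 24.9% with anti-CTLA-4 and 0 with isotype, and receptors seen once make up 42.8% and 90.3%.

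With anti-CTLA-4 the share in clones was highest in the CD8 and cycling classes. Of CD8 T-like cells with both chains, 69.2% (64.5 to 73.6) of 422 with anti-CTLA-4 and 18.6% (11.6 to 27.6) of 102 with isotype were in clones of 2 or more. For cycling T cells the shares were 63.8% (53.9 to 73.0) with anti-CTLA-4 and 3.70% (0.0937 to 19.0) with isotype, the second from 1 of 27 cells. For CD4 T-like cells they were 26.3% (18.5 to 35.4) and 4.85% (1.59 to 11), with anti-CTLA-4 first. Treg-like cells were at 21.1% of 19 with anti-CTLA-4 and 12.4% of 89 with isotype, with overlapping intervals. The 4 anti-CTLA-4 Treg-like cells in clones were all in clones of 5 or more. Of clones with 2 or more cells in the expression data, 4 held Treg-like cells with anti-CTLA-4, each spanning the CD8 and Treg-like classes. With isotype 3 clones spanned both classes and 3 were Treg-like only. Of the 84 anti-CTLA-4 clones with 2 or more cells in the expression data, 32 spanned the CD8 and cycling classes, 31 were CD8 only and 10 were CD4 only. The first clone shown above had 17 CD8 and 3 cycling cells, the second 20 and 1, and the third 16 and 4, whereas the largest isotype clone had 8 CD8 cells and 1 Treg-like cell.

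No clone was shared between the libraries when both chains were required. By the beta chain alone 4 were shared, from 8 anti-CTLA-4 and 4 isotype cells. Both chains were recovered for 35.3% of anti-CTLA-4 and 45.1% of isotype CD8 T-like cells, and for 25.6% and 47.9% of CD4 T-like cells, so a smaller part of the anti-CTLA-4 T cells could be placed in a clone. More than 1 beta chain was found in 3.44% of anti-CTLA-4 and 4.36% of isotype cells with a beta chain.

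Few genes passed 2-fold in NK-like cells. Of 2978 genes compared, 25 (0.839%) were at least 2-fold higher and 17 (0.571%) lower with anti-CTLA-4, together 1.41%, with a median of −0.04. With cells classed by marker transcripts instead of clusters the counts were 103 and 53. None of 17 killer lectin receptors and none of 12 maturation genes compared passed 2-fold, with medians of 0.18 and 0.07. Of 12 granzyme and perforin genes 1 passed, Gzmk at 81.1 CPM with anti-CTLA-4 and 21.6 CPM with isotype. Gzma, the most abundant, was 14238 CPM with anti-CTLA-4 and 13350.0 CPM with isotype, while Gzmb (1613 and 2564 CPM) and Prf1 (695 and 921 CPM) were lower by less than 2-fold. The receptor genes Ncr1 (674 and 778 CPM) and Klrb1c (753 and 876 CPM) were lower by less than 2-fold as well.

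Among the 8 genes with the highest ratios in NK-like cells, Tnfaip3, a brake on NF-kappa-B signalling, stood at 291 CPM (245 to 344) with anti-CTLA-4 and 78.2 CPM (66.5 to 91.4) with isotype, and was detected in 55.6% and 21.7% of cells. Gadd45b, a stress-response gene also among these 8, stood at 58.3 and 13.3 CPM. Of 8 inhibitory receptor and exhaustion genes compared, 2 were at least 2-fold higher and none lower, with a median of 0.51: the nuclear receptors Nr4a1 (154 CPM with anti-CTLA-4, 67.9 with isotype) and Nr4a3 (64.5 and 19.7 CPM). All 5 chemokine and cytokine genes compared were higher, 1 of them by 2-fold, with a median of 0.64 that turned to −0.19 with classes from transcripts. Of these Ccl4 stood at 3406 CPM with anti-CTLA-4 and 1358 CPM with isotype, with 22.6% and 7.39% of UMIs in 1 cell, and Ifng at 229 and 172 CPM. Tbx21, which drives NK maturation, was lower by less than 2-fold at 112 CPM with anti-CTLA-4 and 220.4 CPM with isotype, while Eomes was 314 and 307 CPM. Of 15 stress and dissociation genes compared, none passed 2-fold, with a median of 0.29.

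Lower genes in NK-like cells included Srm, a polyamine synthesis enzyme, at 4.16 CPM with anti-CTLA-4 and 61.5 CPM with isotype. T cell markers summed to 824 CPM in anti-CTLA-4 and 658 CPM in isotype NK-like cells, from 11 and 10 of 11 markers, with Cd5 at 0 in the isotype cells. The list includes signalling genes that NK cells share, and at least 1 of its transcripts was found in 85.2% and 82.5% of cells. Cd3e alone stood at 52.0 and 12.8 CPM and was detected in 3.70% and 1.84% of NK-like cells; its part in the other differences was not tested.

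Cluster 15 had 249 cells with anti-CTLA-4, 24 with isotype and 22 with anti-PD-1. There were 0.542 NK-like cells per cluster 15 cell with anti-CTLA-4, against 22.6 with isotype and 31.7 with anti-PD-1. Its cells had Ncr1 transcripts in 53.8% with anti-CTLA-4 and 83.3% with isotype, and Fcer1g, an adaptor of NK and myeloid receptors, in 98.8% and 100.0%. Cd3e was found in 5.62% with anti-CTLA-4 and 4.17% with isotype, and a beta chain in 0.803% of the anti-CTLA-4 cells and in none of the 24 isotype cells. So Cd3e and receptors were found in few of its cells, although the T cell markers together summed to 705 CPM with anti-CTLA-4 and 693 CPM with isotype and the gamma-delta constant gene Tcrg-C4 was among its 10 leading genes. Its NK markers summed to 3621 and 2535 CPM, far under the 20639 and 19757 CPM of NK-like cells. Much of these sums is Gzma alone, at 1800.5 and 728 CPM in cluster 15 and 14238 and 13350.0 CPM in NK-like cells.

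The cluster's leading genes were Gzmc and its neighbours in the granzyme family, Gzmd, Gzme, Gzmf and Gzmg. They were read off the cluster itself, so their levels are a description, and they were uneven among its cells. Gzmc was at 2915 CPM with anti-CTLA-4 and 6733 CPM with isotype, detected in 26.1% of cells with anti-CTLA-4, and 86.7% of its isotype UMIs came from 1 cell. Gzmf was at 1066 CPM with anti-CTLA-4, from 3.21% of cells, and had no UMI with isotype. Gzma, by contrast with NK-like cells, was detected in 32.5% of anti-CTLA-4 and 20.8% of isotype cluster 15 cells, against 99.3% and 98.3% of NK-like cells. Eomes was 18.5 CPM with anti-CTLA-4 and 57.1 CPM with isotype, against 314 and 307 CPM in NK-like cells, and Tbx21 was 159 and 157 CPM. Il7r was detected in 46.6% with anti-CTLA-4 and 25.0% with isotype. With 24 isotype cells, no ratio was taken for this cluster.

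Macrophage and monocyte-like cells, 391 with anti-CTLA-4 and 969 with isotype, had 100 of 2999 genes (3.33%) at least 2-fold higher and 19 (0.634%) lower, together 3.97%, with a median of −0.04. Genes of arginine use, inflammation and angiogenesis were higher with anti-CTLA-4, and the C1q genes and Apoe were lower. The cells came from 5 clusters in unlike parts: cluster 5, led by Ccl24, C1q genes and Arg1, held 39.4% of them with anti-CTLA-4 and 20.4% with isotype, and cluster 4, led by monocyte genes, 22.5% and 40.0%. The clusters 10, 12 and 16 held 13.8%, 8.18% and 16.1% with anti-CTLA-4, and 18.3%, 11.7% and 9.60% with isotype.

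Arg1, the arginase that depletes arginine, stood at 673 CPM (634 to 714) with anti-CTLA-4 and 62.0 CPM (56.2 to 68.2) with isotype, a 10.9-fold difference. It was detected in 30.9% of cells with anti-CTLA-4 and 6.81% with isotype although the anti-CTLA-4 cells were shallower, and in 0 and 0.184% of NK-like cells. Nos2, the inducible nitric oxide synthase that uses the same amino acid, stood at 83.0 CPM with anti-CTLA-4 and 4.41 CPM with isotype, and Slc7a2, an arginine transporter, at 147 and 10.0 CPM. Of 18 immunosuppressive and angiogenic genes, 13 were compared, 9 were at least 2-fold higher and none lower, with a median of 1.61. Cd274, which encodes PD-L1, stood at 183 CPM with anti-CTLA-4 and 51.1 CPM with isotype, and Vegfa, the main angiogenic factor, at 84.3 and 10.7 CPM. Spp1 (48.5 and 69.2 CPM) and Tgfb1 (586 and 731 CPM) were the members that lay lower. The anti-PD-1 library had 179.7 CPM of Arg1 and 21.4 CPM of Nos2.

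Inflammatory genes were higher in the same cells. Of 11 inflammatory cytokine and chemokine genes compared from a list of 23, 7 were at least 2-fold higher and none lower, with a median of 1.23. Il1b stood at 1179.6 CPM with anti-CTLA-4 and 481 CPM with isotype, its natural antagonist Il1rn at 916 and 278 CPM, and Osm at 157 and 38.9 CPM. Irg1, which makes itaconate, stood at 260.0 and 35.9 CPM. Of 24 interferon gamma-induced genes compared from a list of 30, 21 were higher, with a median of 0.33. Past 2-fold were Nos2, Cd274 and Cxcl10 (1553 CPM with anti-CTLA-4 and 559 CPM with isotype) on the higher side and Ciita on the lower. Cxcl9, the other main ligand of CXCR3, was 724 CPM with anti-CTLA-4 and 468 CPM with isotype. Of 23 type I interferon genes 1 passed, Rsad2 at 173 and 80.6 CPM, with a median of 0.19.

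The complement and lipid list had 5 of 16 compared members at least 2-fold lower and 1 higher. In all 7 were higher and 9 lower, with a median of −0.18. C1qa, C1qb and C1qc, the chains of the first complement component, stood at 397, 494 and 343 CPM with anti-CTLA-4 and at 812, 1151 and 755 CPM with isotype. Apoe stood at 592 and 1295 CPM and the mannose receptor gene Mrc1 at 25.5 and 66.1 CPM in the same order. Abca1, a cholesterol exporter, was the member that was higher, at 64.3 CPM with anti-CTLA-4 and 13.1 CPM with isotype. All 8 MHC class II genes compared were lower, though only the regulator Ciita (24.2 and 58.4 CPM) by 2-fold, while of 14 class I genes 2 were at least 2-fold higher and B2m stood at 4652 and 3174 CPM. None of 16 monocyte genes and none of 12 Fc receptor and phagocytosis genes passed 2-fold.

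The arginine and inflammatory genes differed inside clusters as well. In cluster 5, with 154 anti-CTLA-4 and 198 isotype cells, Arg1 stood at 1325 and 174 CPM, Nos2 at 179 and 13 CPM, Il1b at 2409 and 1199.8 CPM and C1qb at 850.0 and 2924 CPM. In cluster 16, with 63 and 93 cells, Arg1 stood at 2772 and 294 CPM. In the monocyte cluster 4 it was 0 and 1.07 CPM, and 22 genes of 2876 were at least 2-fold higher and 6 lower. T cell markers summed to 274 CPM in anti-CTLA-4 and 73.6 CPM in isotype macrophage and monocyte-like cells, with all 11 markers present in both, and were found in 9.21% and 5.57% of cells; their part in these results was not tested. Retnla had 0.606 CPM with anti-CTLA-4 and 80.6 CPM with isotype, of which 96.5% came from 1 cell.

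**Figure D5:**
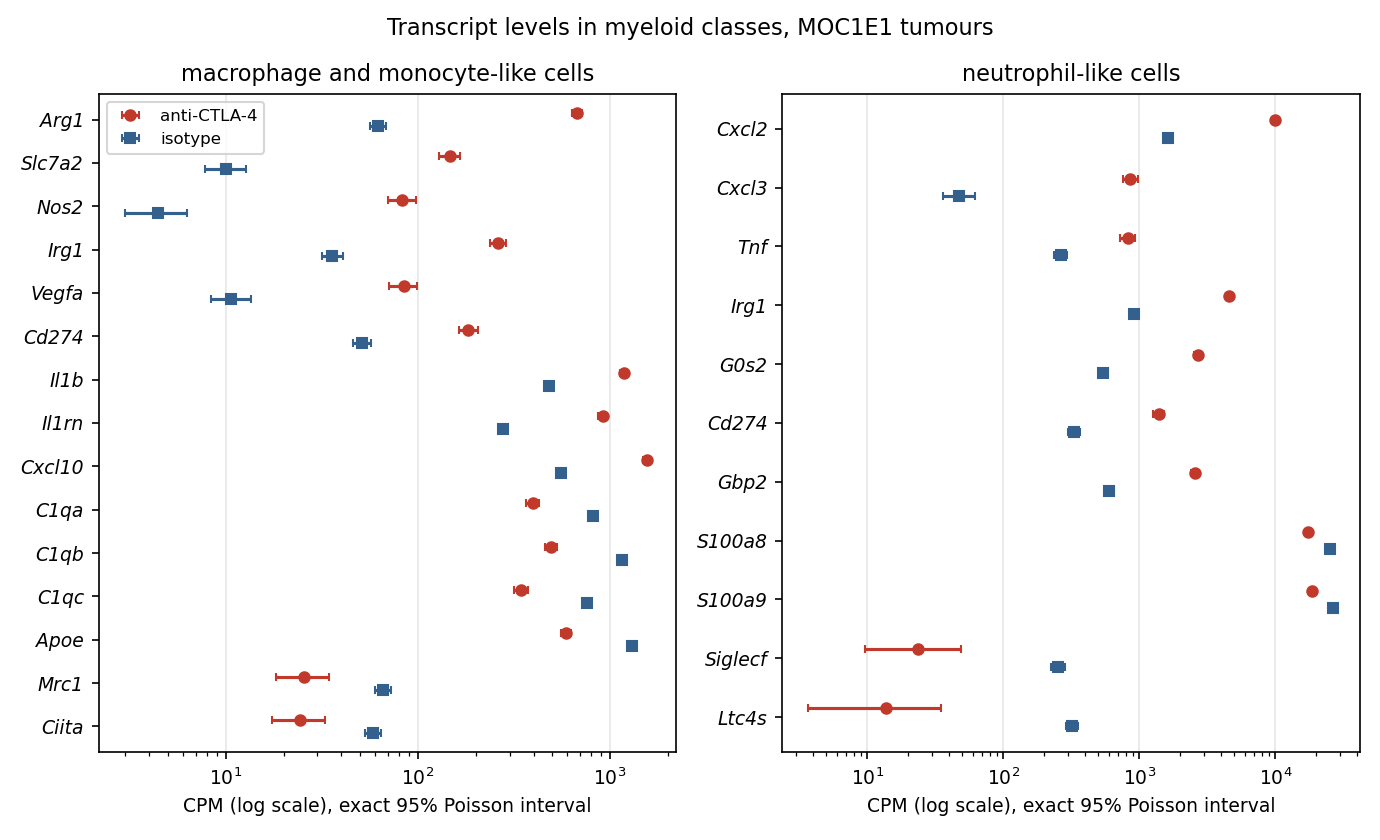
Levels of 15 genes in macrophage and monocyte-like cells and 11 in neutrophil-like cells, in CPM of summed UMIs on a log axis, with exact 95% Poisson intervals; circles are the anti-CTLA-4 library and squares the isotype library. Arg1 in macrophages stands at 673 CPM with anti-CTLA-4 and 62.0 CPM with isotype, the C1q genes are lower with anti-CTLA-4, and Cxcl2 in neutrophils stands at 9875 and 1620.3 CPM.

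Neutrophil-like cells, 261 with anti-CTLA-4 and 705 with isotype, were the shallowest cells and the class with the widest spread of ratios. The median log2 ratio over the 3190 genes compared was −0.30, so ratios here are also given relative to that median. On total UMIs 239 genes (7.49%) were at least 2-fold higher and 509 (16.0%) lower with anti-CTLA-4, together 23.4%, and scaled by the median ratio the split turned to 413 higher and 268 lower. Inflammatory genes were higher: of 10 compared, 7 were at least 2-fold higher and none lower, with a median of 1.56. Cxcl2, which draws further neutrophils through CXCR2, stood at 9875 CPM (9519 to 10239.7) with anti-CTLA-4 and 1620.3 CPM (1549 to 1694) with isotype, a log2 ratio of 2.60, or 2.90 above the median. It was detected in 78.9% and 37.9% of cells, against 0.418% and 1.33% of the deeper CD8 T-like cells.

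Other inflammatory genes followed. Cxcl3 stood at 857 CPM with anti-CTLA-4 and 47.4 CPM with isotype, of which 61.4% of isotype UMIs came from 1 cell, Osm at 1142 and 231 CPM, and Tnf at 823 and 265 CPM. Il1b, which was abundant in both, was 9688 CPM with anti-CTLA-4 and 6036 CPM with isotype. Of 12 immunosuppressive and angiogenic genes 7 were at least 2-fold higher and none lower, with a median of 1.32, among them Cd274 at 1385 and 333 CPM. Of 21 interferon gamma-induced genes 11 were at least 2-fold higher and none lower, with a median of 1.08, among them the guanylate-binding protein Gbp2 at 2561 and 602 CPM. Of 23 type I interferon genes 3 passed 2-fold, with a median of 0.44.

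Genes lower in neutrophil-like cells included Siglecf, a sialic acid receptor found on eosinophils and on some tumour neutrophils, at 23.7 CPM (9.53 to 48.9) with anti-CTLA-4 and 253 CPM (225 to 283) with isotype, or 2.87 below the median on the log2 scale. Ltc4s, which makes cysteinyl leukotrienes, stood at 13.6 CPM with anti-CTLA-4 and 318 CPM with isotype. Siglecf and Ltc4s were detected in 2.68% and 0.766% of anti-CTLA-4 cells and in 21.8% and 21.4% of isotype cells. Granule and maturation genes stayed near the median of all genes: of 19 compared, 1 was at least 2-fold higher and 1 lower, with a median of −0.29, and S100a8 was 17398 CPM with anti-CTLA-4 and 25414 CPM with isotype, 0.25 below the median.

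The neutrophil class had 2 clusters, and cluster 2 held 86.6% of anti-CTLA-4 and 67.0% of isotype cells. In cluster 2 alone Cxcl2 was 11067 CPM with anti-CTLA-4 and 1816 CPM with isotype, Cd274 1582 and 428 CPM, and Siglecf 23.4 and 342 CPM. T cell markers summed to 640.2 CPM in anti-CTLA-4 and 210.3 CPM in isotype neutrophil-like cells and were found in 8.43% and 6.67% of cells. Dendritic cell markers summed to 661 and 1839 CPM, with Flt3, Xcr1 and Cd209a at 0 in the isotype cells. Cd8a, one of the genes with the highest ratios, came from 3.83% of anti-CTLA-4 and 0.142% of isotype cells; the part of such transcripts in the other differences was not tested.

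Dendritic-like cells, 66 with anti-CTLA-4 and 202 with isotype, differed in which of their clusters was filled. Cluster 18, led by Fscn1, Ccr7 and Ccl22, genes of mature dendritic cells that travel to lymph nodes, held 57.6% of them with anti-CTLA-4 and 16.8% with isotype, and cluster 13, led by Cd209a and Clec10a, held 42.4% and 83.2%. Of 3051 genes compared, 60 (1.97%) were at least 2-fold higher and 60 (1.97%) lower, together 3.93%, with a median of −0.01. As these genes lead the clusters, the maturation list is a description of that shift: 6 of 15 compared were at least 2-fold higher and none lower, with a median of 0.94. Fscn1 stood at 1149 CPM with anti-CTLA-4 and 459 CPM with isotype, and Ccl22 and Ccl17, ligands of the regulatory T cell receptor CCR4, at 536 and 229 CPM with anti-CTLA-4, against 130.0 and 77.4 CPM with isotype.

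All 10 MHC class II genes compared in dendritic-like cells were lower with anti-CTLA-4, none by 2-fold, with a median of −0.54; Cd74 was 8962 CPM with anti-CTLA-4 and 14169 CPM with isotype. Of 13 class I genes none passed 2-fold, with a median of 0.04. Regulatory T cell genes were lower in this class, 5 of 10 compared by at least 2-fold, with a median of −0.87, while T cell markers summed to 448 CPM with anti-CTLA-4 and 625 CPM with isotype and a receptor beta chain was found in 6.06% and 12.4% of the cells. With the cells that held T cell transcripts left out, a choice made after seeing the data, the median of those genes turned to 0.39. Gzma had no UMI with anti-CTLA-4 and 69.5 CPM with isotype, at least 8.69-fold lower against the floor, and 53.2% of its isotype UMIs came from 1 cell.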

How the data were processed

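The 2 MOC1E1 expression libraries (anti-CTLA-4 and isotype) and their receptor libraries, 1 sample per group, were analysed. Per the labels' protocols they were made with the 10x Chromium 5′ and V(D)J kits, and per the submitters' processing notes Cell Ranger 3.0.2 was used. The notes list the builds mm10 and GRCh38 without their roles, and the sources used here do not state the annotation version. The deposited table holds raw UMI counts per gene and barcode, and the deposited receptor tables hold contigs with V and J calls, CDR3 sequences and UMI counts; no barcode was above 5.00% mitochondrial UMIs, and whether that reflects a filter by the authors is not stated. UMI totals were 14759232 for the anti-CTLA-4 and 17307375 for the isotype cells.

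Cells of all 3 MOC1E1 libraries with at least 300 genes were scaled to 10000 counts, log-transformed and clustered (scanpy 1.11.5, 2000 variable genes, 30 components, 15 neighbours, leidenalg 0.10.2 at resolution 1). Clusters were named from marker lists, needing at least 3 detected markers (CD4 and CD8 names rest on their own markers with the T cell list) and no leading genes against the name. Scrublet's automatic threshold marked 4 anti-CTLA-4 and 4 isotype cells, which is too few to be a working call, so all cells were kept, and removing the 78 and 96 highest-scoring cells was an alternative. Counts were summed per class and library; ratios are log2 of CPM with a pseudocount of 5, for classes of at least 50 cells in each library, and the computation was tested on simulated data. Named genes are, per class, the 8 highest and 8 lowest ratios with intervals that do not overlap, without mitochondrial, ribosomal protein, receptor segment and unnamed genes, and members of the gene lists. A clone is a set of barcodes with the same CDR3 nucleotides of the productive alpha and beta chain with most UMIs. The receptor tables were matched to the expression libraries by treatment and barcode. Members and gene lists were chosen with earlier results of these data known. A few genes that met these rules are not reported here.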

Additional observations from a re-analysis of the deposited data

How the results depend on the processing

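No paired analysis was possible because each group is 1 library and no test was made. Differences and log2 ratios are anti-CTLA-4 against isotype, with the reported value after each group of alternatives, and the cause of a change was not tested unless fewer or other cells follow from the alternative itself. Leaving out cells with transcripts of another lineage, and values per cluster, were chosen after seeing the data. Leaving out Treg-like cells with Cd8a or Cd8b1 kept 31 anti-CTLA-4 cells, under the minimum of 50 set for ratios. With classes from marker transcripts no value was obtained for cluster 15, whose cells fell in the other classes or stayed unnamed. Of the log2 ratios of named genes over the alternatives, 1059 kept their direction and their side of 2-fold, 56 came under it and 21 reversed.

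The difference in share of all cells, in points, was 41.0 for all T cells (37.8 reported) and 35.2 for CD8 T-like cells with at least 500 genes, and 34.4 for CD8 T-like cells with doublets removed (31.9 reported). With classes from transcripts it was 5.2 for CD4 T-like (8.09), −3.29 for Treg-like (−4.54), −5.94 for NK-like (−11.3) and −1.76 for dendritic-like cells, and at resolution 2 it was −4.67 for dendritic-like cells (−3.70). Among T cells, with both libraries clustered alone, it was 39.7 for CD8 T-like (35.2), 2.26 for CD4 T-like (−1.29) and −26.8 for mixed T cells (−13.5). With doublets removed these were 46.7, −4.92 and −21.4, and with at least 500 genes CD4 T-like cells were at −5.99. With classes from transcripts Treg-like cells were at −16.7 (−21.3) and cycling T cells at 2.54 (5.25).

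Counts of genes at least 2-fold higher and lower depended on the minimum level and on how cells were classed. CD8 T-like cells had 49 higher and 99 lower with both libraries clustered alone, and 157 and 121 from 20 CPM (91 and 59 reported). CD4 T-like cells had 182 higher from 20 CPM and 122 lower with classes from transcripts (113 and 77). Treg-like cells had 38 and 172 by the mean of per-cell CPM, and 145 lower with at least 500 genes and 173 lower without cells holding Cd8a or Cd8b1 (21 and 94). Mixed T cells had 63 higher with classes from transcripts, 49 higher by per-cell CPM, 29 lower with both libraries alone and 41 lower with doublets removed (28 and 64). NK-like cells had 103 and 53 with classes from transcripts, 82 lower from 20 CPM and 43 lower without cells holding T cell transcripts (25 and 17). Macrophage and monocyte-like cells had 151 and 50 by per-cell CPM and 155 and 46 from 20 CPM (100 and 19). Neutrophil-like cells had 413 and 268 scaled by the median ratio (239 and 509). Dendritic-like cells had 120 and 169 by per-cell CPM, 108 lower with classes from transcripts and 159 lower from 20 CPM (60 and 60).

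List medians that reversed were those of CD8 T-like chemokines and cytokines, at 0.42 with doublets removed and 0.09 by per-cell CPM (−0.32), and of Treg-like MHC class II genes, at −2.84 with classes from transcripts and −1.41 without cells holding Cd8a or Cd8b1 (1.19). The NK-like chemokine median was −0.19 with classes from transcripts (0.64). The regulatory T cell list in dendritic-like cells was at 0.51 with classes from transcripts and 0.39 without cells holding T cell transcripts (−0.87).

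Single genes that reversed are given as log2 ratios. In CD8 T-like cells Ccl1 was 0.34 with doublets removed (−3.54). In CD4 T-like cells Ccl4 was 1.53 with both libraries alone (−2.82). In Treg-like cells, with classes from transcripts and then without cells holding Cd8a or Cd8b1, H2-Aa was −3.48 and −3.34 (1.68), H2-Eb1 −2.84 and −3.30 (1.30), and H2-Ab1 −3.26 and −0.11 (1.19). In mixed T cells Ifitm1 was −1.24 with both libraries alone (3.27), and with classes from transcripts Mxd1 was −0.06 (1.5), Gzma −0.12 (1.42), Ccl1 1.49 (−4.85) and Ccl3 1.30 (−1.94). In NK-like cells, with classes from transcripts, Ifi27l2a was −0.23 (2.43), Cd3e −0.12 (1.68) and Cd74 0.33 (−1.71), and Ly6a was −0.21 with at least 500 genes (1.91). In dendritic-like cells Cd8b1 was −1.22 with classes from transcripts (1.81), Penk −3.67 with doublets removed (1.74), and Ikzf2 0.73 with classes from transcripts and 0.83 without cells holding T cell transcripts (−2.15).

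The difference in the share of cells in receptor clones of 2 or more was 55.0 points by the beta chain alone and 41.6 points at equal cell numbers (47.5). Depth limits the neutrophil-like cells most, at median UMIs of 985 with anti-CTLA-4 and 1393 with isotype.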
